A study of Homo sapiens with 6 samples.

Results

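The genes described here run glucose breakdown, the pentose phosphate pathway and the cellular response to low oxygen, and they were compared between U87MG and T98G, established human glioblastoma cell lines. Of 43 genes named for these processes, 42 were measured, out of 11963 genes in all, and CA9 was not analysed here. Members were taken by gene symbol, and where a gene had several probe sets, the brightest on average across the 6 arrays stood for it. U87MG cells are described in the labels as withstanding apoptosis from bortezomib and from the isopeptidase inhibitor G5, yet dying by necrosis under G5. T98G cells are described as prone to apoptosis under either compound, with some protection from the necrosis. Each line had 3 Affymetrix arrays of total RNA. No array is labelled as treated or as kept at low oxygen, both lines having grown at 37 °C and 5% CO2 in DMEM with 10% serum. Whether the replicates of a line came from separate cultures is not stated, and the p-values below cover no more than array-to-array spread, which may be technical. The 42 genes describe steady levels in cultured lines, and a lower level in such bulk RNA cannot tell fewer expressing cells from less RNA per cell.

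Glycolysis converts glucose to pyruvate, and lactate dehydrogenase turns pyruvate into lactate, a route that glioblastoma cells are known to use heavily even in the presence of oxygen. The pentose phosphate pathway branches off at glucose 6-phosphate and yields NADPH, used in biosynthesis and in keeping glutathione reduced, and ribose for nucleotides. In the response to low oxygen, the alpha subunits HIF1A and EPAS1 escape hydroxylation by the EGLN prolyl hydroxylases and subsequent destruction through VHL, pair with ARNT and bind DNA at the core ACGTG or GCGTG. Their targets include most glycolytic enzymes, pyruvate dehydrogenase kinases, secreted factors and the enzymes that modify collagen.

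The widest differences among these genes lay in the oxygen response and in the pentose phosphate pathway. None of the 15 glycolytic enzyme genes among the 42 differed by 2-fold. Outside them the isozyme genes ENO2 and ALDOC did, whereas HK3, GAPDHS, PGAM2, ENO3, PKLR and LDHC did not. The oxygen sensor gene EGLN3, the secreted peptide gene ADM, the pentose phosphate dehydrogenase gene PGD and the collagen hydroxylase gene PLOD2 were lower in U87MG, and the secreted glycoprotein gene STC1 was higher. A gene was called when its limma adjusted p over all 11963 genes was under 0.05 and its difference was at least 2-fold. By this rule 5 of the 42 genes were called, 1 higher and 4 lower in U87MG, which is 11.9%, beside 13.6% of all genes (6.56% higher and 7.01% lower). The share of called members was thus near that of the whole array. With the adjusted p alone, 24 of the 42 passed, 13 of them higher and 11 lower, beside 41.3% of all genes (19.7% higher and 21.7% lower). Of the 24, 20 passed with each array left out in turn, and HIF1A, ENO1, PGLS and P4HA2 did not. Under all alternatives that gave them a value 17 of the 24 kept the adjusted p, and 9 of the other 18 passed it under at least 1. Of these 17, only ADM, EPAS1, HK1, PDK3, PFKP and PGD had a value in all 15 alternatives. The rest had no value once probe sets that can match several transcripts were removed. The arrays of the lines did not overlap for 31 of the 42, beside 52.0% of all genes. The median log2 difference, U87MG minus T98G, was 0.08 over the 42 genes and -0.01 over all genes, and the median size of the difference was 0.45 and 0.26. The members were also bright, with a median log2 level of 11.9 against 8.18 for all genes, and the part of brightness in these counts was not tested.

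**Figure D1:**
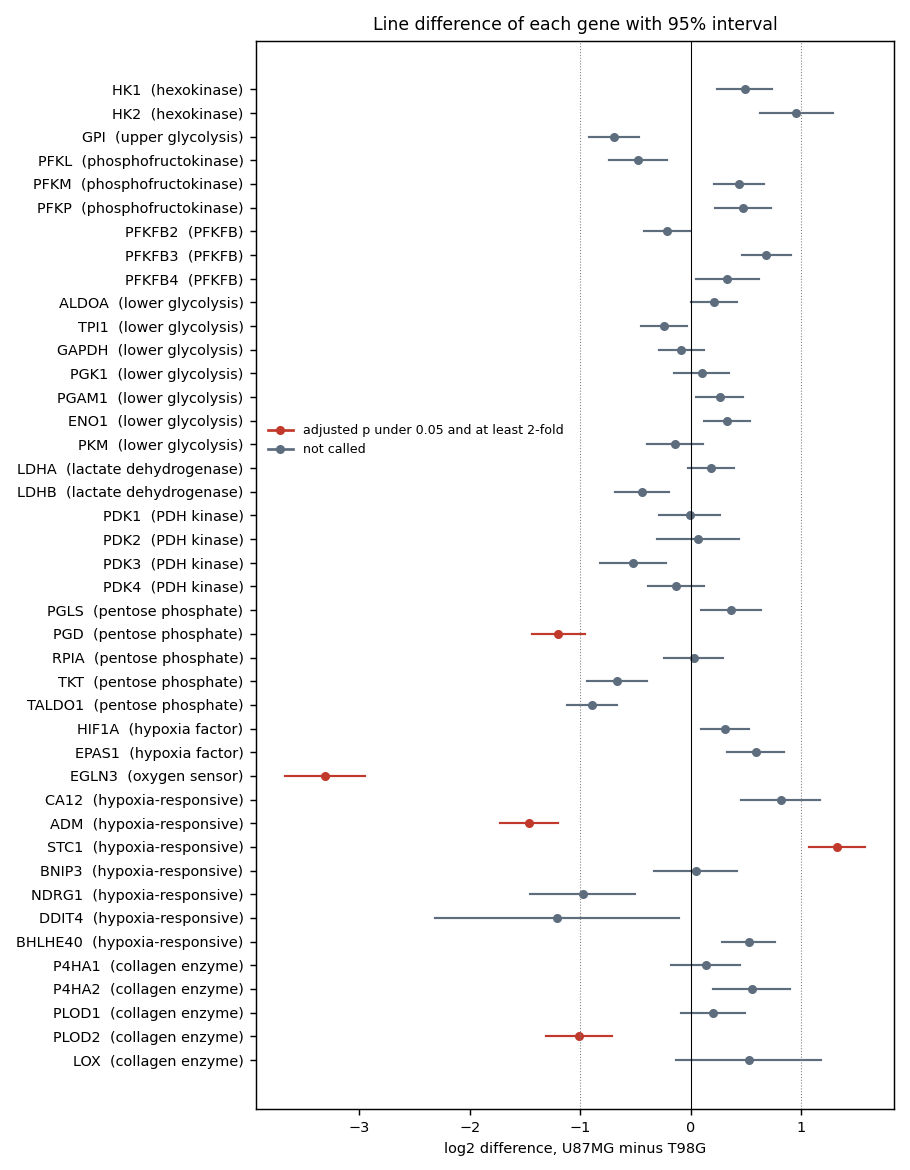
Log2 difference (U87MG minus T98G, x axis) of each of the 42 measured genes with its 95% interval, ordered by role, with dotted lines at 2-fold. EGLN3, ADM, PGD and PLOD2 lie to the left and STC1 to the right among called genes, and DDIT4 has the widest interval, -2.32 to -0.10.

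The arrays agreed closely within a line. Across probe sets, arrays of 1 line correlated at r = 0.990 to 0.997 and arrays of different lines at 0.927 to 0.932, and array medians ran from 7.55 to 7.65. U87MG replicate 3 had the lowest mean over the added poly-A control probe sets, 5.30, the other U87MG arrays having 6.10 and 6.84 and the T98G arrays 6.25 to 6.63. The 3′ minus 5′ difference of the GAPDH control probe sets, a sign of RNA integrity, was 0.14 to 0.17 in U87MG and 0.05 to 0.13 in T98G. For the ACTB control probe sets it was larger and more spread, 0.35 to 0.61 in U87MG and 0.38 to 0.68 in T98G. Among markers of the lineage, VIM averaged 14.85 in U87MG and 14.59 in T98G, CD44 13.68 and 13.93, and the astrocyte marker GFAP 6.52 and 6.42, while S100B stood at 4.23 and 4.13, close to the 3.32 to 4.03 read by the control probe sets for a bacterial trp transcript, taken as the floor. Of the markers of other cell types, PTPRC for leukocytes, CDH1 for epithelium and CDH5 for endothelium averaged 4.55, 4.47 and 3.95 in U87MG and 4.33, 4.44 and 4.03 in T98G. Well above the floor but close between the lines were CD3E (7.16 in U87MG and 7.34 in T98G), AIF1 (6.97 and 6.94) and KRT8 (6.95 to 7.05 and 7.24 to 7.26). Other markers on these lists did differ between the lines. The keratin gene KRT18 averaged 6.57 in U87MG and 12.05 in T98G, the endothelial receptor gene KDR 8.29 and 5.03, the stem cell filament gene NES 8.89 and 6.34, and the glial factor gene SOX9 8.44 and 10.43. The epithelial gene EPCAM averaged 5.25 in U87MG and 4.36 in T98G. Their part in the results below was not tested.

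The 250 bases before the start site of EGLN3, ADM, PLOD2 and PGD are shown because these are 4 of the called genes and all were lower in U87MG. They come from RefSeq promoter windows on GRCh38.p14, each printed 5′ to 3′ on the strand of its gene, with capitals marking the HIF core ACGTG or GCGTG on either strand (CACGT and CACGC on the reverse). The window of EGLN3 is chr14:33951075-33951324 on the minus strand, and that of ADM chr11:10304823-10305072 on the plus strand. The window of PLOD2 is chr3:146161185-146161434 on the minus strand, and that of PGD chr1:10398814-10399063 on the plus strand.
EGLN3: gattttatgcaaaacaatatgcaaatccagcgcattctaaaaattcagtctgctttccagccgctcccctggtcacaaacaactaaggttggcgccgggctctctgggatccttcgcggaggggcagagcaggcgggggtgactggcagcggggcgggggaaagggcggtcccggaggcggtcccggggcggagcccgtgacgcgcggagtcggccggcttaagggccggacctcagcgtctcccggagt
ADM: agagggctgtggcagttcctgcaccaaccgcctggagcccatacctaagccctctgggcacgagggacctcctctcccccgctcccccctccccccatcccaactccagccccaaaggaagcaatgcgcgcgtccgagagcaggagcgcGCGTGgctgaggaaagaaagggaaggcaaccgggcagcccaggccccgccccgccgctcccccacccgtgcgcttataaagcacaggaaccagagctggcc
PLOD2: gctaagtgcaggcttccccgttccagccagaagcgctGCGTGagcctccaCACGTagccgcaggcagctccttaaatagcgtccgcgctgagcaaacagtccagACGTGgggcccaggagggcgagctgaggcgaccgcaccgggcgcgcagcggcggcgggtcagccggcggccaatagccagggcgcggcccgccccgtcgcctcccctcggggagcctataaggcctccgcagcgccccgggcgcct
PGD: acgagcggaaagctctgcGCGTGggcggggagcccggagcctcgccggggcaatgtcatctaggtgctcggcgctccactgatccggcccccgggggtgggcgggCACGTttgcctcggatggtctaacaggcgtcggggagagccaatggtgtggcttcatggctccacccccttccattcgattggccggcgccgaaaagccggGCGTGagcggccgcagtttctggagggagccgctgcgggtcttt
The EGLN3 window held 0 matches, the ADM window 1, and the PLOD2 and PGD windows 3 each. Over the windows of the 39 members with an entry, several of which have more than 1 start site, 38 of 66 (57.6%) held either core, beside 15172 of 35116 windows (43.2%) of all genes. ACGTG was in 37.9% of the member windows and in 18.5% of all windows, and GCGTG in 37.9% and 32.2%, windows with both being counted in each. Base composition was not matched, and the members were chosen partly as genes of the response to low oxygen. The part of either in these shares was not tested. Overlapping matches were allowed, and a palindromic CACGTG counts on both strands. A match of so few letters is a description of the sequence and not a binding site, and its absence from this window says nothing of binding elsewhere. PFKFB2, NDRG1 and STC1 had no entry.

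Of the 15 genes for enzymes from hexokinase to lactate dehydrogenase, 0 were called by limma, while 5 higher and 3 lower ones passed the adjusted p alone and 11 had an unadjusted p under 0.05. Over all genes these shares were 13.6% called, 41.3% with the adjusted p and 47.8% with the unadjusted p. Their differences ran from -0.70 to 0.96, with a median of 0.18. HK2, the inducible hexokinase that traps glucose as its phosphate, had log2 levels of 10.52, 10.28 and 10.55 on the U87MG arrays and 9.67, 9.19 and 9.61 on the T98G arrays. All U87MG arrays lay above all T98G arrays on this probe set, by a difference of 0.96 (SE 0.15, 1.94-fold, limma adjusted p = 0.000537), short of 2-fold. The second, dimmer probe set of HK2 went the other way, at -0.56, with an adjusted p also under 0.05, so the direction of HK2 was not settled by these arrays. HK1, the ubiquitous hexokinase, had a difference of 0.49 (95% interval 0.24 to 0.74). GPI, which converts glucose 6-phosphate to fructose 6-phosphate, had levels of 11.79, 11.74 and 11.69 in U87MG and 12.51, 12.49 and 12.30 in T98G. Its arrays did not overlap, and the difference of -0.70 (SE 0.10, 1.62-fold, limma adjusted p = 0.000414) was short of 2-fold.

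The phosphofructokinase genes, which encode the committed step of glycolysis, did not share a direction. PFKP, the platelet form, and PFKM, the muscle form, had differences of 0.47 (0.22 to 0.73) and 0.43 (0.21 to 0.66), whereas PFKL, the liver form, had -0.48 (-0.74 to -0.22). All 3 passed an adjusted p of 0.05 in limma without reaching 2-fold, and both PFKL probe sets were lower in U87MG, at -0.52 and -0.48. The difference of PFKP exceeded that of PFKL by 0.95 (SE 0.15), with an exact two-sided permutation p of 0.1, the smallest that 3 arrays against 3 can give. Among the PFKFB genes, whose bifunctional enzymes set fructose 2,6-bisphosphate, the activator of phosphofructokinase, PFKFB3 had levels of 10.00, 10.12 and 9.95 in U87MG and 9.39, 9.29 and 9.33 in T98G. Every U87MG array was above every T98G array, with a difference of 0.68 (SE 0.10, 1.61-fold, limma adjusted p = 0.000366). PFKFB4 and PFKFB2 had differences of 0.33 (0.05 to 0.62) and -0.22 (-0.42 to -0.01), neither passing the adjusted p.

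From aldolase to pyruvate kinase the levels were high and the lines close on the brightest probe sets. Very bright probe sets are compressed by the processing described below, and the part of this in the close levels was not tested. The 7 genes ALDOA, TPI1, GAPDH, PGK1, PGAM1, ENO1 and PKM had differences between -0.24 (TPI1) and 0.33 (ENO1). Only ENO1, enolase, had an adjusted p under 0.05, with levels of 14.16 ± 0.04 in U87MG and 13.83 ± 0.04 in T98G (SD, n = 3 arrays per line, difference 0.33, limma adjusted p = 0.0170). The limma adjusted p of ENO1 was 0.0767 without T98G replicate 1 and 0.0573 without U87MG replicate 2, and 0.0790 with its probe sets averaged. With a variance trend on intensity, PGAM1, TPI1 and ALDOA passed as well (limma adjusted p = 0.0065, 0.00692 and 0.0157). GAPDH stood at 14.79 to 14.80 in U87MG and 14.88 in T98G, near the highest value on any array, 14.93, and its difference was -0.09 (-0.29 to 0.12). PKM, pyruvate kinase, had -0.14 (-0.39 to 0.11) on its brightest probe set and -0.79 on the other, which had an adjusted p under 0.05 when all probe sets were tested singly. By the same test a dimmer probe set passed for PGK1 (0.33) and for TPI1 (-0.33), while their other probe sets did not.

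Lactate and pyruvate handling showed unequal differences between relatives. LDHB, the heart-type subunit of lactate dehydrogenase, had 13.75 ± 0.16 in U87MG and 14.19 ± 0.05 in T98G (difference -0.44, SE 0.11, limma adjusted p = 0.00947). LDHA, the muscle-type subunit, had 14.36 ± 0.04 in U87MG and 14.17 ± 0.05 in T98G. Its difference of 0.18 (-0.03 to 0.39) did not pass. With a variance trend on intensity the LDHA difference did pass (limma adjusted p = 0.0198). The LDHB difference was 0.62 below that of LDHA (-0.62, SE 0.07, exact two-sided permutation p = 0.1). The pyruvate dehydrogenase kinases, which switch off the pyruvate dehydrogenase complex and so its conversion of pyruvate to acetyl-CoA, held 1 member with an adjusted p under 0.05, PDK3 at -0.52 (-0.82 to -0.22), with 3 probe sets from -0.56 to -0.40. PDK1, a HIF1A target, had -0.01 (-0.28 to 0.26), PDK2 0.07 (-0.30 to 0.44) and PDK4 -0.13 (-0.39 to 0.12). PDK4 was the dimmest member, at 4.71 in U87MG and 4.85 in T98G.

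The pentose phosphate genes differed by step. PGD, the dehydrogenase that releases NADPH in the oxidative branch, had levels of 11.57, 11.72 and 11.84 in U87MG and 12.89, 12.98 and 12.86 in T98G. The lines were apart by about 1 unit at their nearest arrays, and PGD was 2.29-fold lower in U87MG (difference -1.20, SE 0.11, limma adjusted p = 1.55e-05). TALDO1, transaldolase of the non-oxidative branch, had 12.62, 12.67 and 12.48 in U87MG and 13.41, 13.53 and 13.51 in T98G. Its U87MG arrays all lay below the T98G arrays (difference -0.89, SE 0.10, 1.86-fold, limma adjusted p = 7.33e-05), short of 2-fold. TKT, transketolase, which acts beside it, had 13.41, 13.28 and 13.02 in U87MG and 13.94, 13.83 and 13.94 in T98G. The arrays did not overlap, with a difference of -0.67 (SE 0.12, 1.59-fold, limma adjusted p = 0.00146) and -0.89 on the second TKT probe set. In the other direction PGLS, the lactonase just ahead of PGD, had 0.37 (0.10 to 0.64, limma adjusted p = 0.0344) and a second probe set at 0.61. Its limma adjusted p was 0.0106 without U87MG replicate 2 and 0.0678 to 0.109 without any other single array. RPIA, ribose 5-phosphate isomerase, had 0.03 (-0.24 to 0.29). Thus 3 of the 5 genes had an adjusted p under 0.05 and were lower in U87MG, 1 was higher and 1 did not pass, with a median difference of -0.67, beside 21.7% lower and 19.7% higher over all genes.

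**Figure D2:**
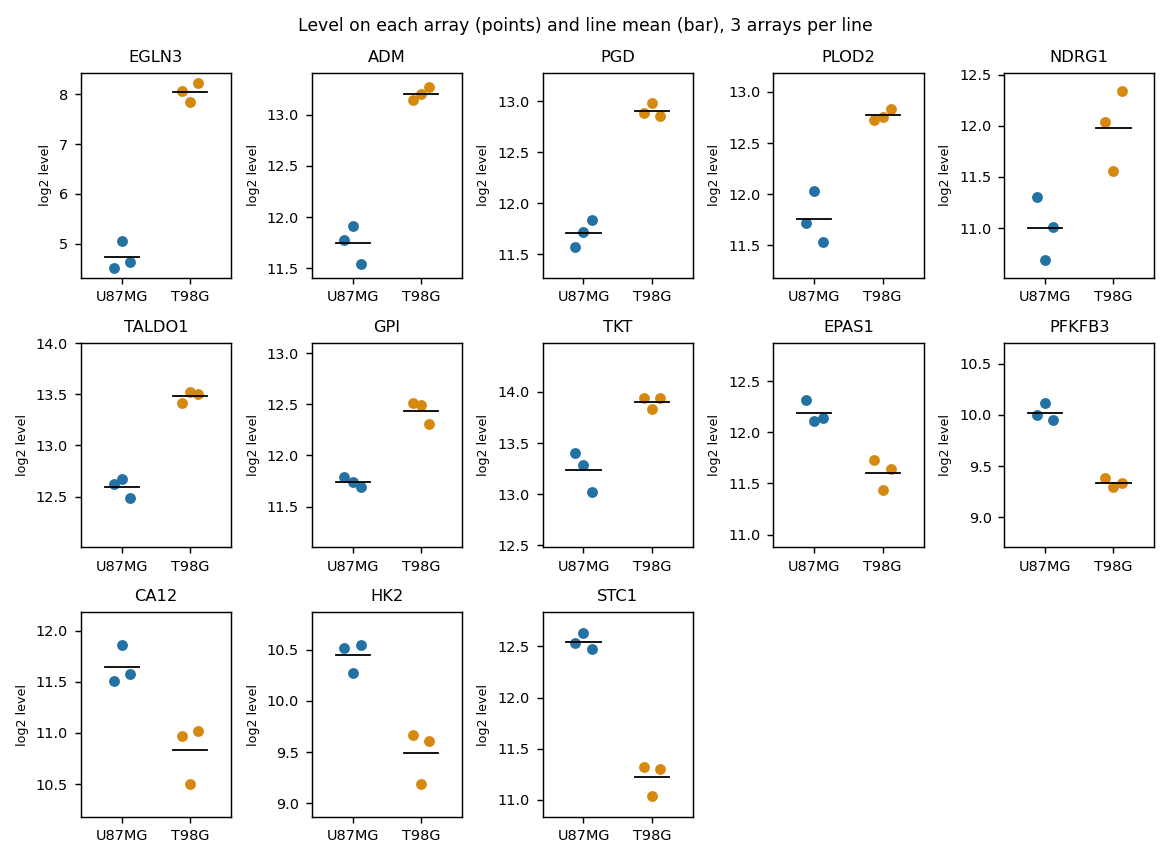
Log2 level on each array (points, y axis) with the line mean (bar) for the 13 genes with an adjusted p under 0.05 and at least a 1.5-fold difference, U87MG on the left and T98G on the right of each panel. The y axes differ in position, and no panel has overlapping lines, the widest gap being that of EGLN3 (U87MG mean 4.73, T98G mean 8.05).

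Of the 15 genes of the oxygen response and collagen modification, 1 was called higher, 3 were called lower and 11 were not called (26.7% called), beside 13.6% of all genes. Of the HIF alpha subunits, EPAS1 was moderately higher in U87MG, while the hydroxylase EGLN3 was far lower. EPAS1, which encodes HIF-2 alpha, had levels of 12.32, 12.11 and 12.14 in U87MG and 11.72, 11.44 and 11.64 in T98G. The arrays did not overlap, with a difference of 0.59 (SE 0.11, limma adjusted p = 0.00237) and 0.59 on the second probe set. HIF1A had 0.31 (0.09 to 0.53), short of 2-fold, with a limma adjusted p of 0.0285. That p was 0.0685 to 0.0919 without any 1 of 5 arrays, and it stayed under 0.05 (0.0114) without U87MG replicate 3. Transcript levels do not report the proteins, whose amounts are set mainly by hydroxylation. EGLN3, a prolyl hydroxylase that marks HIF alpha for destruction and is itself induced by low oxygen, had 4.51, 5.05 and 4.64 in U87MG and 8.06, 7.84 and 8.24 in T98G. Its U87MG levels sat just above the floor of the control probe sets, and EGLN3 was 9.94-fold lower (difference -3.31, SE 0.16, limma adjusted p = 1.99e-07), the widest difference of the 42 genes. It rests on a single probe set, of the kind that can match several transcripts.

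Targets of the response did not move together. ADM, which encodes the vasodilator peptide adrenomedullin, had 11.77, 11.91 and 11.54 in U87MG and 13.14, 13.20 and 13.27 in T98G. The lines were well apart, and ADM was 2.76-fold lower (difference -1.46, SE 0.12, limma adjusted p = 7.69e-06). STC1, the secreted glycoprotein stanniocalcin 1, had 12.53, 12.63 and 12.48 in U87MG and 11.32, 11.03 and 11.30 in T98G. It was 2.51-fold higher (difference 1.33, SE 0.11, limma adjusted p = 1.11e-05), with its other probe sets at 1.55 and 0.87, the last short of 2-fold. CA12, a membrane carbonic anhydrase, had 11.51, 11.86 and 11.57 in U87MG and 10.97, 10.50 and 11.02 in T98G. All U87MG arrays were above all T98G arrays (difference 0.82, SE 0.16, limma adjusted p = 0.00234), and its 6 probe sets were all above 0, at 0.15 to 0.95, the lowest being the one dim probe set.

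NDRG1, a differentiation-related stress gene, had 11.31, 10.69 and 11.01 in U87MG and 12.03, 11.56 and 12.34 in T98G. The lines did not overlap although both were spread, and the difference of -0.98 (SE 0.21, limma adjusted p = 0.00431) was just short of 2-fold. It passed 2-fold without T98G replicate 2 (-1.19) or without U87MG replicate 1 (-1.13). DDIT4, an inhibitor of mTORC1 signalling under stress, had 10.93, 8.80 and 8.96 in U87MG and 11.08, 10.23 and 11.02 in T98G. U87MG replicate 1 lay among the T98G arrays and the other U87MG arrays below them, so the difference of -1.21 (SE 0.49, limma adjusted p = 0.0778) was not called. Without U87MG replicate 1 it was -1.89 and called, and without any other single array it was -1.48 to -0.83 and not called. BNIP3, a mitophagy receptor, had 0.05 (-0.33 to 0.42), and BHLHE40, a transcriptional repressor, had 0.53 (0.29 to 0.77) with an adjusted p under 0.05.

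Differences of the collagen-modifying enzymes did not share a direction. PLOD2, the lysyl hydroxylase of collagen telopeptides, had 11.72, 12.03 and 11.53 in U87MG and 12.73, 12.76 and 12.83 in T98G. The T98G arrays were close to each other and above all U87MG arrays, and PLOD2 was 2.02-fold lower in U87MG (difference -1.01, SE 0.13, limma adjusted p = 0.000203), with -1.36 on its other probe set. The call sat at the threshold and was lost without T98G replicate 3 (-0.98), U87MG replicate 1 (-0.99) or U87MG replicate 3 (-0.90). PLOD1, which hydroxylates lysines of the helix, had 0.20 (-0.08 to 0.49), and the PLOD2 difference lay 1.22 below it (-1.22, SE 0.13, exact two-sided permutation p = 0.1). P4HA2, a prolyl hydroxylase subunit of collagen, had 0.56 (0.21 to 0.90, limma adjusted p = 0.0164), and its relative P4HA1 had 0.14 (-0.17 to 0.44). The limma adjusted p of P4HA2 was 0.0508 without T98G replicate 1, 0.0673 without T98G replicate 2 and 0.0532 without U87MG replicate 2. LOX, the lysyl oxidase that cross-links collagen, ranged from 12.10 to 13.32 in U87MG and from 11.75 to 12.52 in T98G. Its lines overlapped, and the difference of 0.53 (-0.13 to 1.18) did not pass.

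In all, 9 pairs of relatives were compared, on differences between lines and never on the levels of different probe sets. With 3 arrays per line, 7 of the 9 reached the smallest exact permutation p of 0.1, and none could pass 0.05 (p adjusted over the 9 pairs = 0.129 for those 7). Besides those given, the excess of the first gene over the second was 0.51 (SE 0.12) for PDK1 over PDK3, 0.42 (SE 0.07) for P4HA2 over P4HA1, 0.28 (SE 0.10) for EPAS1 over HIF1A and 0.47 (SE 0.22) for HK2 over HK1. The HK2 value turned to -0.29 when the probe sets of a gene were averaged. The remaining pairs were PFKFB3 over PFKFB4, at 0.35 (SE 0.18, exact permutation p = 0.2), and PFKP over PFKM, at 0.04 (SE 0.13, exact permutation p = 0.8).

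Probe sets of the same gene mostly pointed the same way. Of the 42 genes, 21 had several probe sets, and in 18 of these all had the same sign. HK2, PFKFB2 and BNIP3 were the other 3, the last pair with no probe set passing an adjusted p of 0.05.

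**Figure D3:**
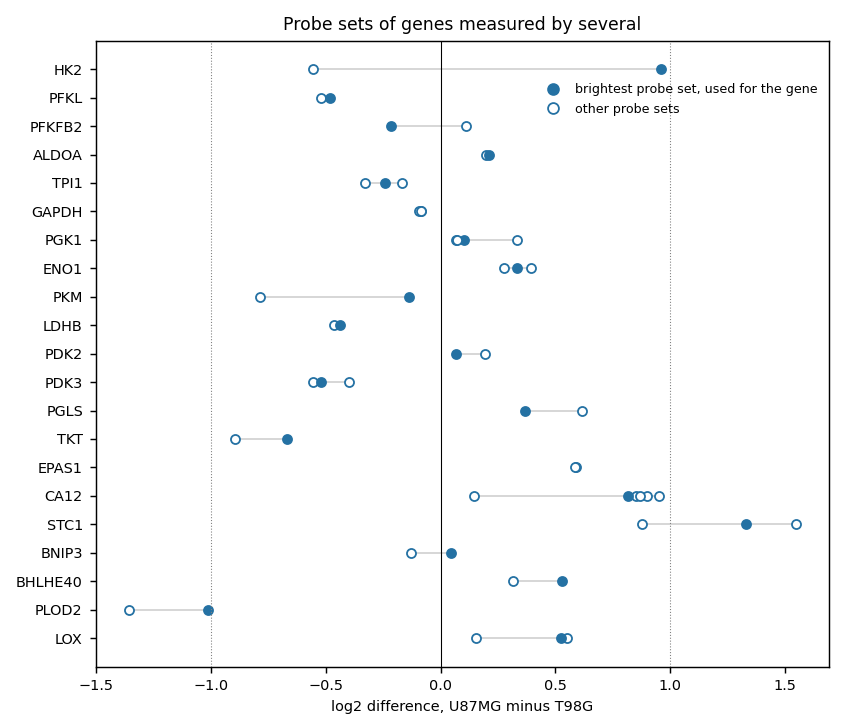
Log2 difference (U87MG minus T98G, x axis) of every probe set of the 21 genes measured by several, with the brightest filled and the others open. HK2 spans 0, from -0.56 to 0.96, while both PLOD2 probe sets are below -1.

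Among 78 further genes listed for the same pathways, 65 were measured, of which 10 were higher, 5 lower and 50 not called in U87MG (23.1% called), beside 13.6% of all genes. Their median log2 difference was 0.01, beside -0.01 over all genes, and the list was drawn up with some of these differences already known. Both called glucose transporter genes were lower in U87MG. SLC2A1, which encodes GLUT1, was 5.29-fold lower, with 8.53 ± 0.16 in U87MG and 10.93 ± 0.04 in T98G (SD, n = 3 arrays per line), and SLC2A10 was at least 65.5-fold lower with values under 4.03 set to 4.03. SLC2A3, which encodes GLUT3, lay in the other direction short of 2-fold, at 0.87 (0.57 to 1.17), with 3 probe sets at 0.83 to 0.87 and an adjusted p under 0.05. SLC2A6 and SLC2A8 had 0.20 (-0.06 to 0.46) and 0.19 (-0.06 to 0.43). Of the isozyme genes, the neuronal enolase ENO2 was 6.35-fold higher and the aldolase ALDOC 3.13-fold higher, unlike ENO1 and ALDOA above, which were short of 2-fold. The other glycolytic isozyme genes HK3, GAPDHS, PGAM2, ENO3, PKLR and LDHC were not called, with differences from -0.10 (HK3) to 0.51 (ENO3). DLAT, the acetyltransferase core of pyruvate dehydrogenase, was 2.68-fold lower.

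In the oxygen response beyond the members, VEGFA, the angiogenic growth factor, had 12.98 ± 0.14 in U87MG and 11.22 ± 0.19 in T98G, and its 4 probe sets were at 1.75 to 2.16. BHLHE41, the relative of BHLHE40, was 4.07-fold higher and the mitochondrial protein gene FAM162A 2.04-fold higher, with 0.38 on its other probe set. CUL2, a scaffold of the VHL ubiquitin ligase, was 2.50-fold higher, with 0.75 on its other probe set, short of 2-fold. ARNT2, a partner of HIF alpha, and CITED2, a competitor of HIF for p300, were 2.55-fold and 2.56-fold lower. The other 4 called genes were higher in U87MG. They were the nuclear receptor gene RORA (at least 6.58-fold), the transcription factor gene MAFF (3.13-fold), the sterol sensor gene INSIG2 (2.05-fold) and TXNIP, an inhibitor of thioredoxin that glucose induces (2.70-fold). The partner ARNT itself had 0.28 and the hydroxylase EGLN1 0.06 (-0.19 to 0.32), neither called.

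**Figure D4:**
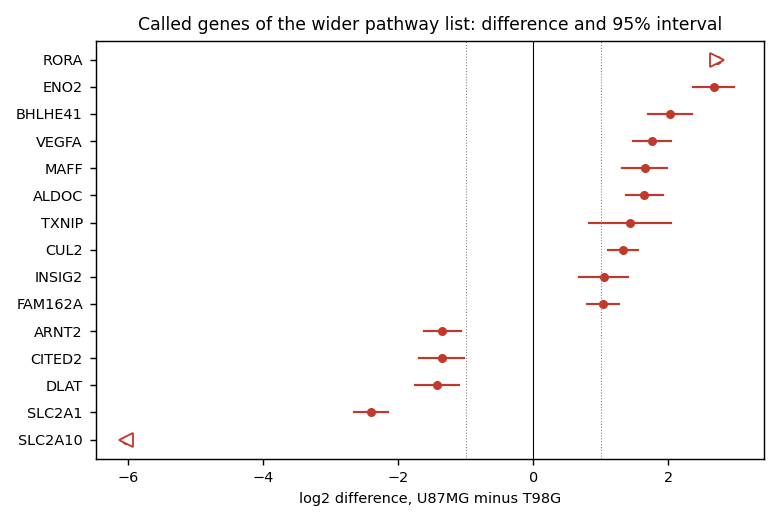
Log2 difference (U87MG minus T98G, x axis) with 95% interval for the 15 called genes of the wider pathway list, with dotted lines at 2-fold. Open triangles mark RORA and SLC2A10 at the bounds of 2.72 and -6.03 that follow from setting values under 4.03 to 4.03, and the other higher genes run from ENO2 at 2.67 to FAM162A at 1.03.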

How the data were processed

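The deposited values are log2 expression of each probe set on 6 arrays. The submitters' processing notes name RMA and limma, and neither versions nor their order are given in the sources used here. Between arrays, RMA equalises intensity distributions, so a difference in total RNA is hidden, and it compresses dim and very bright probe sets. Detection calls were not used here, and the number of arrays limits the precision (median residual SD 0.146). Of 22277 probe sets, 62 were controls, 19064 had 1 gene in the platform annotation of 2016, 1043 named several and 2108 named none. For 19052 of the first kind, the Entrez identifier gave a current symbol in the RefSeq table of GRCh38.p14. Control probe sets were left out.

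U87MG minus T98G was fitted in R 4.3.3 with lmFit and eBayes of limma 3.58.1, as a two-sided test with Benjamini-Hochberg adjustment over 11963 genes. All members were named, with every array value for those with an adjusted p under 0.05 and at least 1.5-fold. Of the wider list, called genes were named. ARNT, EGLN1, SLC2A3, SLC2A6, SLC2A8, HK3, GAPDHS, PGAM2, ENO3, PKLR and LDHC were added after their values were seen. DDIT4 and LOX were given by array for the same reason. Members and lists were chosen with earlier results of these data known. The fit was tested on simulated data. Alternatives were 3 other thresholds and 15 other settings of probe sets, normalization, variance, pairing and arrays.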

Additional observations from a re-analysis of the deposited data

How the results depend on the processing

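The count of 5 called members was 4 to 6 when each array was left out, the count of all genes 1609 to 1653 and that of the wider list 14 to 16. With no fold minimum, 24 members, 4942 genes and 29 genes of the wider list passed, and with a 1.5-fold minimum 13 members and 3171 genes. Removal of probe sets that can match several transcripts left 21 members with a value, of which PGD and ADM (2) were called, and 8 called genes of the wider list. EGLN3, PLOD2 and STC1 then had no probe set. PLOD2 fell just short of 2-fold after repeated median centring (-0.99) or quantile normalization (-0.97). HK2 passed 2-fold without T98G replicate 1 (1.05), T98G replicate 3 (1.02) or U87MG replicate 2 (1.05). The replicate number as a block gave 6 called members, adding DDIT4 (adjusted p = 0.00622), with 1626 genes in all. Deviations of same-numbered arrays correlated at 0.158, 0.0721 and 0.0838, each array best with its own number. These correlations were low, and no label ties a number to a shared batch. Whether the numbers pair the arrays was not tested. The excess of HK2 over HK1 reversed to -0.29 with probe sets averaged. Over 607 values of single members, 16 changed sign, none of them a called gene. These were HK2 (-0.56), PFKFB2 (0.11 on its other probe set, also without multiply matching ones) and BNIP3 (-0.13) on single probe sets, BNIP3 with probe sets averaged (-0.040), and PDK1 after centring (0.00974) or quantile normalization (0.0056). With each array left out, PDK1 ran from -0.13 to 0.058, PDK2 from -0.069 to 0.21, RPIA from -0.050 to 0.11 and BNIP3 from -0.10 to 0.19. The cause of these changes was not tested. Signal near 4.03 and near 14.93 limits EGLN3, PDK4 and GAPDH.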
